A study of Rattus norvegicus with 9 samples.

Results

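The 8 MHC class II presentation genes of the rat were followed in liver: RT1-Ba and RT1-Bb, RT1-Da and RT1-Db1, Cd74, RT1-DMa and RT1-DMb, and Ciita. They were chosen by symbol, as every row of the deposited array table that lists one of these names, and the rule itself uses no measured value, although the set was proposed with earlier results of these data known. All 8 were found, among 16292 gene symbols in the table, and 14 of the 31042 probe sets tested read them. The table places the 6 RT1 genes on chromosome 20, Cd74 on chromosome 18 and Ciita on chromosome 10. A probe set is a group of short oligonucleotides that together read one transcript, and its signal is given on a log2 scale throughout, with a detection call of present, marginal or absent.

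Liver RNA came from 9 male Sprague-Dawley rats, an outbred stock, with 1 array for each rat and 3 rats in each group. The vehicle group was given vehicle, which the labels do not describe further. The CCl4 group received carbon tetrachloride, a liver toxin that causes fibrosis, mixed 1:1 with olive oil. The mix was injected intraperitoneally and repeatedly over 8 weeks, at 0.2 mL per 100 g body weight each time. The CCl4+Rot group received the same CCl4 and, from 2 weeks after its first injection, rottlerin at 2.5 mg/kg, a plant compound that opens BK potassium channels. Vehicle-treated rats are numbered 3, 4 and 5, CCl4-treated rats 1, 2 and 3, and CCl4+Rot rats 4, 5 and 6, so the same number in different groups names different rats.

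MHC class II molecules are pairs of an alpha and a beta chain that show peptides from engulfed protein to CD4+ T cells. New pairs travel with the invariant chain, which fills the peptide groove until lysosomal proteases trim it and the DM pair exchanges its last fragment for a peptide. Kupffer cells, dendritic cells, B cells and sinusoidal endothelial cells carry class II in the liver, hepatocytes carry little of it at rest, and the chains are among the most variable genes between individuals.

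Transcription of the whole family depends on the coactivator CIITA, which binds no DNA itself and is held at the promoter by the RFX complex on an X box and NF-Y on a Y box. The stretches below are shown so that the letters of these boxes can be looked for in each member. Within these stretches, only RT1-Da and RT1-Db1 hold the exact letters of both. Promoter windows were available for 6 of the 8 genes (RefSeq, GRCr8), each from 250 bases before to 50 bases after the start of the gene, and the 100 bases that end 26 bases before the start are printed 5′ to 3′ on the gene's strand. Capitals mark AGCAAC, the letters of an X box core, and ATTGG, the core of the Y box, searched on both strands (CCAAT is ATTGG on the other strand). Ciita and RT1-DMb were not matched.
RT1-Ba, chr20:4576932-4577031, plus strand: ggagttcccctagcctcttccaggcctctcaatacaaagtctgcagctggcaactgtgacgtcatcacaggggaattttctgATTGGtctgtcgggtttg
RT1-Bb, chr20:4604144-4604243, minus strand: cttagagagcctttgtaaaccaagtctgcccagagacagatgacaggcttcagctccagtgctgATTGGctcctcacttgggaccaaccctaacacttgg
RT1-Da, chr20:4515290-4515389, plus strand: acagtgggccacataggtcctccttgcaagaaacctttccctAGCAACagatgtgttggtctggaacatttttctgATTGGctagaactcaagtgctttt
RT1-Db1, chr20:4560188-4560287, minus strand: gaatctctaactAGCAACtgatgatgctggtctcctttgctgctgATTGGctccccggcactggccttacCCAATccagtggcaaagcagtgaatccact
Cd74, chr18:56527081-56527180, plus strand: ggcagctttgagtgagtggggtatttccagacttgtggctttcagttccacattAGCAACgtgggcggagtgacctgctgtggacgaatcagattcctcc
RT1-DMa, chr20:4712361-4712460, minus strand: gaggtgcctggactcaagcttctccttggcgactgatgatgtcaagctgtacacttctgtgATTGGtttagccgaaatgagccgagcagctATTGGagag

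ATTGG or its reverse lay in the window of 6 of the 6 genes, while 37.49% of all 33469 promoter windows hold it. AGCAAC lay in 3 of the 6, RT1-Da, RT1-Db1 and Cd74, against 14.67% of all windows. The Cd74 window held the other motif as CCAAT, 189 bases before the start and outside the printed stretch. In RT1-Da both motifs stood 34 bases apart from start to start and in RT1-Db1 33 bases apart, in the same order. An AGCAAC followed within 40 bases by ATTGG was found in 2 of the 6 windows and in 0.266% of all windows. These are exact letter matches only, near matches were not searched for, and binding was not measured.

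All 8 genes were detected in every rat. The brightest probe set of each, the one with the highest mean signal, was called present on all 9 arrays, and it stands for the gene below. Cd74 and RT1-Da gave signals above 11.8 in every rat, and Ciita between 7.15 and 8.92. The tissue itself read as liver, with 10 of 10 hepatocyte genes present on all arrays. Between 15550 and 16849 probe sets were called present on 8 arrays, but 12714 on that of CCl4 rat 3, whose median signal over all probe sets was 7.81 against 6.79 to 7.01 elsewhere. Over the 11231 probe sets present on all arrays its median lay among the others (9.51 to 9.58). The 10 hepatocyte genes summed to 234993 on that array (antilog scale), against 310568 to 355643 on the others. Results that rest on rat 3 of the CCl4 group are therefore also given without it or with its value set apart.

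RT1-Da and RT1-Db1 encode the alpha and beta chains of RT1-D, the rat counterpart of human HLA-DR. The RT1-Da signal was 12.80, 11.98 and 12.11 in the vehicle group, 12.36, 12.94 and 12.67 in the CCl4 group and 12.68, 12.61 and 13.14 in the CCl4+Rot group. Vehicle rat 3 was as bright as the treated rats, and all groups overlapped. RT1-Da was 0.36 higher (SE 0.285) with CCl4 than with vehicle and 0.15 higher (SE 0.285) with CCl4+Rot than with CCl4, with limma adjusted p of 0.622 and 0.902. The 95% interval of the latter difference ran from -0.51 to 0.82.

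RT1-Db1 varied the least of the 8 over the rats, by 0.89. It read 10.79, 10.19 and 10.46 in the vehicle group, 10.35, 10.56 and 10.97 in the CCl4 group and 10.54, 10.57 and 11.09 in the CCl4+Rot group. Its means were 10.48 ± 0.30 (SD, n = 3), 10.63 ± 0.32 and 10.73 ± 0.31 in that order, and the steps between them were smaller than the spread within any group. A further RT1-Db1 probe set was dimmer and called present in 3 rats, vehicle rat 4 (9.33) and CCl4+Rot rats 4 and 6 (9.63 and 9.83), and absent in the other 6 at 7.65 to 8.70.

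RT1-Ba and RT1-Bb encode the chains of RT1-B, the counterpart of HLA-DQ. The brightest RT1-Ba probe set read 11.06, 10.73 and 10.22 in the vehicle group, 9.20, 10.76 and 10.44 in the CCl4 group and 11.30, 10.80 and 11.49 in the CCl4+Rot group. Every CCl4+Rot rat lay above every CCl4 rat, as for 4.73% of all probe sets, although the nearest pair differed only by the step from 10.76 to 10.80, and CCl4 rat 1 stood lowest. The difference between CCl4+Rot and CCl4 was 1.06 (SE 0.436, 95% interval 0.05 to 2.08), a limma p of 0.0424 before and 0.750 after adjustment over all probe sets. It did not pass, and with the other probe sets of the gene it took other values.

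The table reads RT1-Ba by 4 probe sets, called A to D here in the order of their mean signal, and they disagreed by rat and not by group. Probe set A is the one given above. Probe set D lay between 10.77 and 11.84 in 7 rats, but was called absent in CCl4 rat 1 (3.04) and CCl4+Rot rat 4 (6.43). Probe sets B and C lay between 10.94 and 12.16 in 7 rats and were called absent in others, vehicle rat 4 (6.59 and 6.34) and CCl4+Rot rat 6 (7.42 and 5.96). So 4 rats each lost the signal of one kind of probe set while keeping a bright signal on the other, and the remaining 5 rats were called present on all.

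The gap between probe sets D and B in the same rat (D minus B) separates these rats. It was 4.19 in vehicle rat 4 and 4.34 in CCl4+Rot rat 6, -9.12 in CCl4 rat 1 and -5.16 in CCl4+Rot rat 4, and between -0.15 and 0.25 in the 5 others. The same rats stood out elsewhere in the class II genes: vehicle rat 4, CCl4 rat 1 and CCl4+Rot rats 4 and 6 had the brightest RT1-Bb signals of their groups, and 3 of these 4 were the rats with a present call on the dimmer RT1-Db1 probe set. Which RT1 alleles each rat carried was not measured, and their part in these values was not tested.

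**Figure D1:**
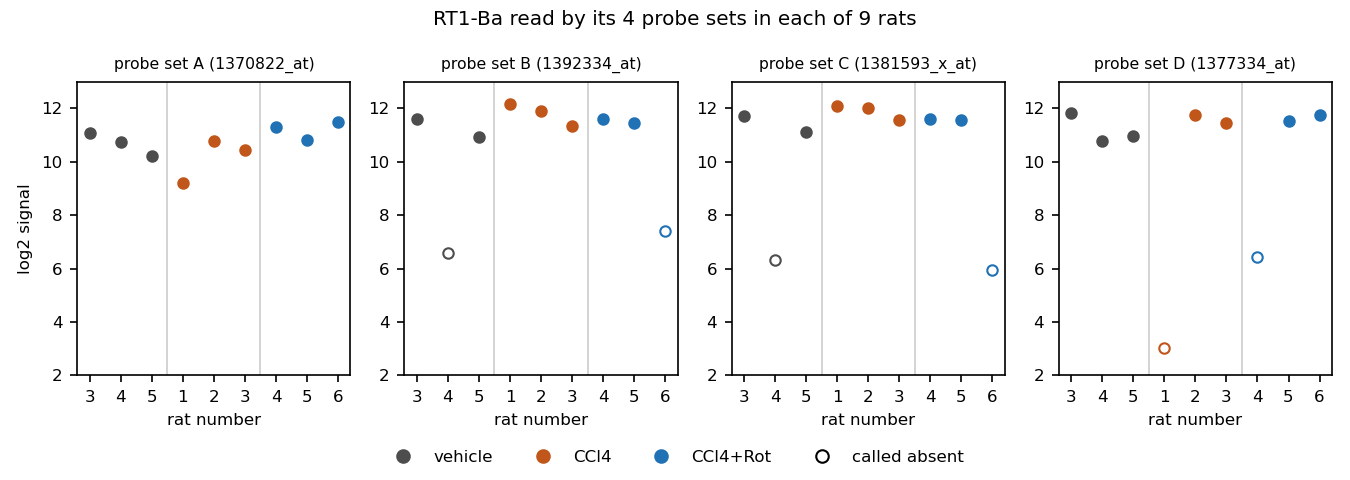
The log2 signal of RT1-Ba on each of its 4 probe sets (A to D) in each of the 9 rats, coloured by group, with open circles where the array called the transcript absent. Low values fall in CCl4 rat 1 and CCl4+Rot rat 4 on D and in vehicle rat 4 and CCl4+Rot rat 6 on B and C, so that rats and not groups are separated.

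The probe set therefore set the direction of RT1-Ba. Between CCl4 and vehicle the change was -0.54 on A and -2.44 on D, but 2.09 on B and 2.16 on C. Between CCl4+Rot and CCl4 it was 1.06 on A and 1.15 on D, but -1.64 on B and -2.18 on C. The standard errors were 0.436 on A and 1.53 to 2.45 on the others, and no change passed the test on any of them.

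Such wide ranges were common among genes of the RT1 complex, in a look made after the RT1-Ba values were seen. Of 33 probe sets with an RT1 symbol that were present on at least 3 arrays, 11 (33.33%) spanned more than 3 log2 units over the 9 rats, against 4.89% of the 17512 other probe sets. The class II members held 3 of those 11, all of them RT1-Ba. Among class I probe sets, 1 probe set of RT1-EC2 was lowest in vehicle rat 4 and CCl4+Rot rat 6, at 8.59 and 8.88 against 12.14 to 13.14 elsewhere. RT1-T24-4 was lowest in CCl4 rat 1 at 7.41 against 10.41 to 11.39. Not all values followed the RT1-Ba rats, as CCl4+Rot rat 4 read 11.23 on RT1-T24-4. On the probe set that names RT1-A2, RT1-A3 and RT1-EC2, CCl4+Rot rat 6 alone was low (6.49), and vehicle rat 4 read 13.13.

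RT1-Bb is read by 1 measured probe set, which also names LOC688090, and its other probe set was absent on all 9 arrays. Its signal was 9.75, 9.85 and 9.10 in the vehicle group, 10.20, 9.44 and 9.62 in the CCl4 group and 10.98, 9.80 and 10.86 in the CCl4+Rot group. CCl4+Rot rats 4 and 6 stood highest of all rats, while CCl4+Rot rat 5 lay within the range of both other groups. The CCl4+Rot mean was 0.98 above vehicle (SE 0.386, 95% interval 0.08 to 1.88, limma adjusted p = 0.551) and 0.79 above CCl4 (SE 0.386, adjusted p = 0.757), and those rats are the same ones in which an RT1-Ba or RT1-Db1 probe set behaved apart.

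Cd74 encodes the invariant chain. It read 12.86, 11.81 and 12.00 in the vehicle group, 12.49, 12.69 and 12.19 in the CCl4 group and 12.59, 12.48 and 12.92 in the CCl4+Rot group. Vehicle rat 3 lay above 5 of the 6 treated rats, and the other vehicle rats lay below all of them. The CCl4 mean was 0.24 above vehicle (95% interval -0.47 to 0.95) and the CCl4+Rot mean 0.20 above CCl4 (-0.51 to 0.92) and 0.44 above vehicle (-0.27 to 1.16), with limma adjusted p of 0.764, 0.878 and 0.816. Without vehicle rat 3 the last difference was 0.76 with an adjusted p of 0.470, so that 1 rat decided its size and still no test was passed.

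Over the 9 arrays, RT1-Da followed Cd74 most closely among the members (Pearson r = 0.893, Spearman rho = 0.917), though r was 0.673 without vehicle rats 4 and 5. The others gave r from 0.70 for RT1-DMb down to -0.19 for Ciita. Without vehicle rats 4 and 5 their r ran from 0.54 for RT1-Ba down to -0.58 for Ciita, with RT1-DMb at 0.02. Of 7213 genes ranked by r with Cd74, Lmf2, Ablim3, Tmem98, Ermard and Abcg1 came first, at 0.953 to 0.932. The arrays share their treatments and their scaling, and with 9 points these values only describe the rats measured.

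RT1-DMa and RT1-DMb encode the DM pair, which sits in the endosome and edits the peptide. They were the 2 of the 8 genes whose CCl4 rats all lay above the vehicle rats, as did 11.1% of all probe sets. RT1-DMa read 8.67, 8.26 and 8.14 in the vehicle group, 8.92, 9.24 and 9.74 in the CCl4 group and 8.90, 8.74 and 9.21 in the CCl4+Rot group. Every rat given CCl4, with or without rottlerin, lay above every vehicle rat. The CCl4 mean was 0.94 above vehicle (SE 0.267, 95% interval 0.32 to 1.56), which is 1.92-fold, with a limma p of 0.00844 before and 0.262 after adjustment. CCl4 rat 3 was the brightest of all, and without it the difference was 0.72 (adjusted p = 0.347). The CCl4+Rot mean was 0.59 above vehicle (SE 0.267, adjusted p = 0.627) and 0.35 below CCl4 (95% interval of the change -0.97 to 0.27), and the latter groups overlapped.

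RT1-DMb read 10.05, 9.50 and 9.65 in the vehicle group, 10.09, 10.49 and 10.45 in the CCl4 group and 10.78, 10.30 and 10.60 in the CCl4+Rot group. Again no rat given CCl4 lay below a vehicle rat, but vehicle rat 3 and CCl4 rat 1 nearly met. The CCl4 mean was 0.61 above vehicle (SE 0.226, adjusted p = 0.35) and the CCl4+Rot mean 0.83 above vehicle (SE 0.226, 95% interval 0.31 to 1.36, 1.78-fold, adjusted p = 0.348). CCl4+Rot and CCl4 differed by 0.22 (95% interval -0.31 to 0.74) and overlapped. The probe sets of both DM genes name a further gene symbol each, LOC100909593 for RT1-DMa and LOC100909630 for RT1-DMb, so the signal may be shared with it.

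Ciita, the coactivator, overlapped between all groups. It read 7.98, 7.35 and 7.71 in the vehicle group, 7.18, 7.42 and 8.92 in the CCl4 group and 7.81, 7.43 and 7.15 in the CCl4+Rot group. CCl4 rat 3 stood alone, with 7.98 in vehicle rat 3 as the next highest value. The difference between CCl4 and vehicle was 0.16 (SE 0.461, adjusted p = 0.899) and became -0.38 without that rat, and the difference between CCl4+Rot and CCl4 was -0.38 and became 0.16. A further Ciita probe set was absent on all 9 arrays.

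**Figure D2:**
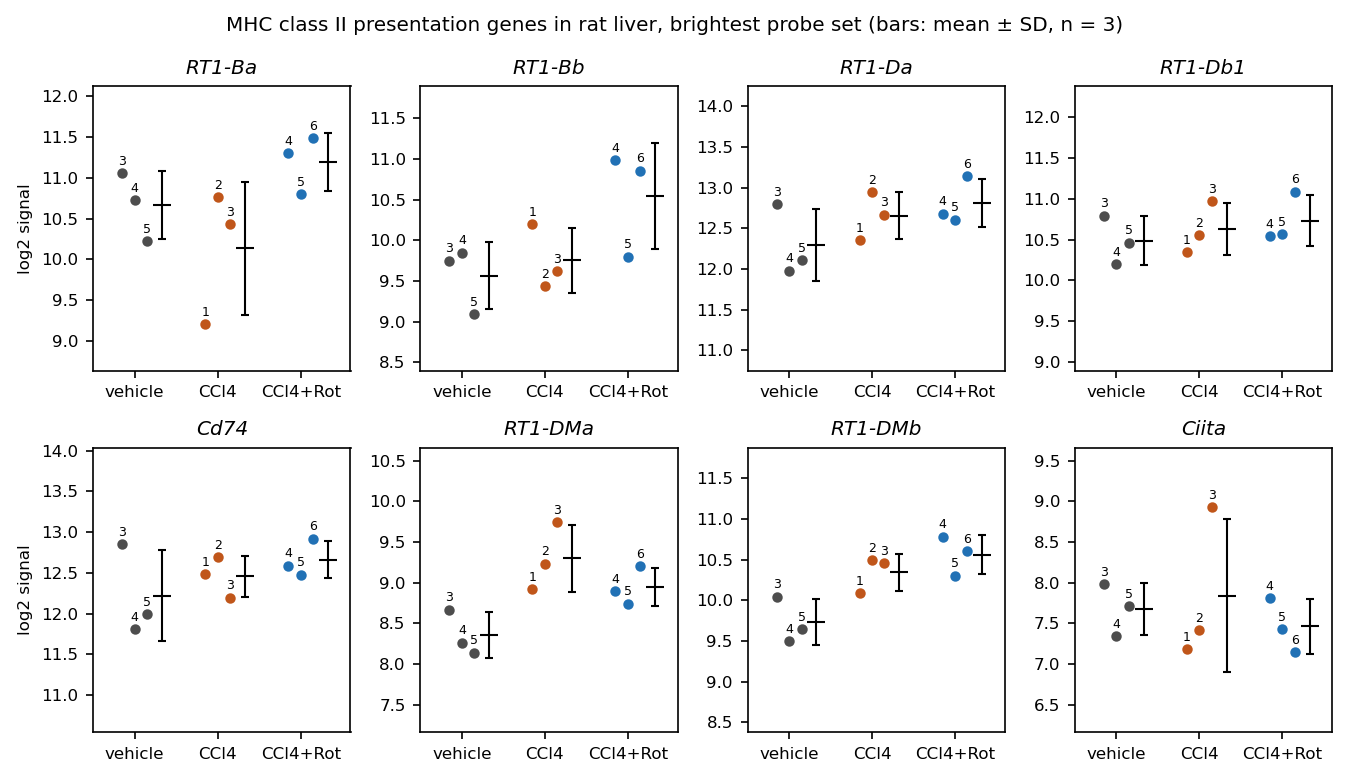
The log2 signal of each gene's brightest probe set in each rat (points, numbered by rat) with the group mean ± SD (bars, n = 3), each panel spanning the same width in log2 units. RT1-DMa and RT1-DMb lie higher in every rat given CCl4 than in every vehicle rat, and the other genes overlap between vehicle and CCl4.

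None of the 8 genes was called in any of the 3 comparisons, where a call asks for a limma adjusted p below 0.05 and at least 1.5-fold. Few probe sets of the whole array were called either, 0% between CCl4 and vehicle, 0.00322% between CCl4+Rot and CCl4 and 0.0258% between CCl4+Rot and vehicle. Without adjustment, p lay below 0.05 for 2 members between CCl4 and vehicle (RT1-DMa and RT1-DMb), 1 between CCl4+Rot and CCl4 (RT1-Ba) and 2 between CCl4+Rot and vehicle (RT1-DMb and RT1-Bb). The same held for 12.4%, 6.63% and 8.31% of all probe sets in these comparisons, and for 14%, 4.26% and 9.58% of those present on all arrays. The rats of the first group were all higher for 2, 1 and 2 of the 8 genes, against 11.1%, 4.73% and 11.9% of all probe sets and 11.2%, 8% and 15.4% of those present on all arrays.

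The median change of the 8 genes was 0.21 between CCl4 and vehicle, 0.18 between CCl4+Rot and CCl4 and 0.52 between CCl4+Rot and vehicle. Over the probe sets present on all arrays the medians were -0.01, 0.02 and -0.01. In the first comparison 7 of the 8 means were higher and in the last 7 of 8, but the last 2 comparisons share the CCl4+Rot rats and the first and last share the vehicle rats, so they are not separate evidence. When each array was centred on its own median the first median turned to -0.14, since the array of CCl4 rat 3 has the high median given above. An exact permutation test of 3 rats against 3 cannot go below a two-sided p of 0.1, so it was not used gene by gene. The p values set each difference of group means against the spread between these rats. In limma that spread is pooled over the groups and moderated over all probe sets.

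**Figure D3:**
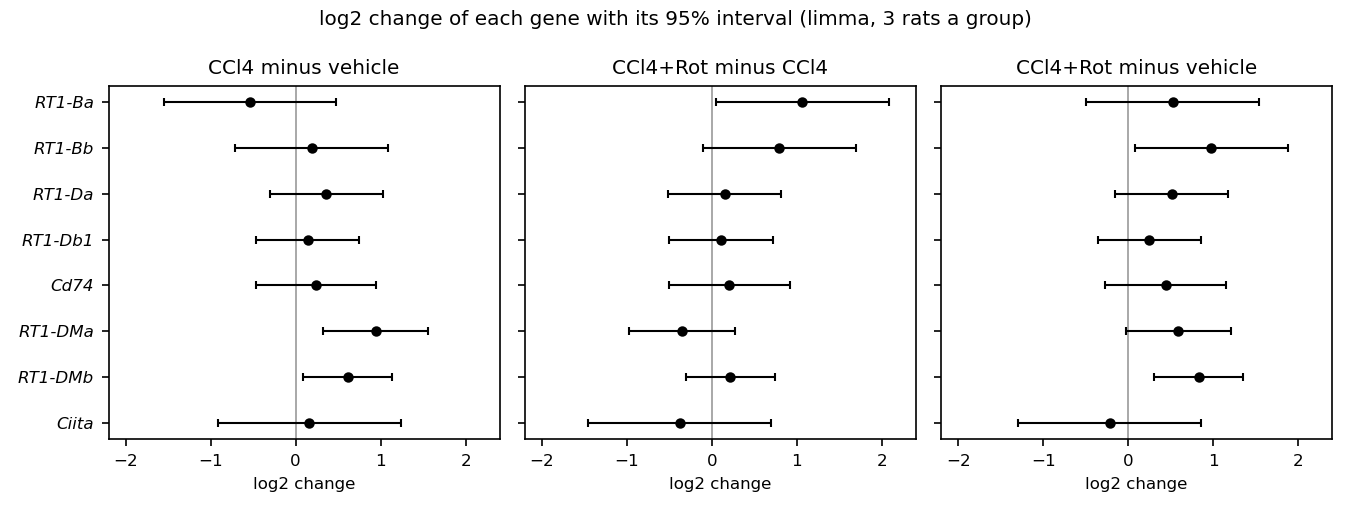
The log2 change of each gene's brightest probe set (points) with its 95% interval from limma (bars, 3 rats a group) in the 3 comparisons. The intervals of RT1-DMa and RT1-DMb in the first comparison, RT1-Ba in the second, and RT1-DMb and RT1-Bb in the third leave out 0 before adjustment, and with arrays centred on their medians Cd74, RT1-Bb, RT1-Db1 and Ciita change sign in the first.

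Part of the spread was shared within rats. Vehicle rat 3 gave the highest signal of its group for 7 of the 8 genes, CCl4 rat 1 the lowest of its group for 6 and CCl4+Rot rat 5 the lowest of its group for 6. The median signal over the 8 genes was 10.42 in vehicle rat 3 against 10.02 and 9.94 in the others of its group, and 10.43 in CCl4+Rot rat 5 against 10.88 and 10.97. Vehicle rat 3 thus lay close to CCl4 rat 3, at 10.44, and to CCl4+Rot rat 5.

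Other class II pathway genes were read from a list of proteases, handling enzymes and further genes of the pathway. Of its 20 symbols, some of them alternative names of the same gene, 14 were measured, all present on every array. None was called. Between CCl4 and vehicle, p before adjustment lay below 0.05 for 5 of the 14, all higher, against 14% of the probe sets present on all arrays. Among them were the lysosomal proteases Ctsd (0.77, SE 0.183, adjusted p = 0.231) and Ctsz (0.88, SE 0.229, adjusted p = 0.249), the asparaginyl endopeptidase Lgmn (0.69, SE 0.201) and the thiol reductase Ifi30 (0.57, SE 0.189). Ctss, the protease that makes the last cut in the invariant chain, was 0.47 higher (SE 0.212, adjusted p = 0.420). The list's median change was 0.05, below that of the class II genes.

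All CCl4 rats lay above all vehicle rats for 6 of the 14, Lgmn and Ifi30 among them, against 11.2% of the probe sets present on all arrays, and the other 8 overlapped. Lgmn read 11.46, 11.28 and 11.09 in the vehicle group, 11.90, 12.11 and 11.90 in the CCl4 group and 12.21, 11.80 and 12.36 in the CCl4+Rot group. Ifi30 stood between 11.36 and 11.38 in vehicle and between 11.74 and 12.29 in all treated rats. Between CCl4+Rot and CCl4, p before adjustment lay below 0.05 for 1 of the 14, the protease inhibitor Cst3 (0.49, SE 0.199, adjusted p = 0.749), where 4.26% of the probe sets present on all arrays did so. Between CCl4+Rot and vehicle it lay below 0.05 for 6, again all higher, against 9.58%.

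Factors that switch on class II genes gave no calls, over 18 of 21 listed. Rfx5 was 0.40 higher (SE 0.244) and Rfxap 0.29 lower (SE 0.152) with CCl4 than with vehicle, with limma adjusted p of 0.535 and 0.469, and Rfxank, the other subunit of RFX, was absent on all arrays. Irf1 was 0.20 lower with CCl4+Rot than with CCl4 (SE 0.267, limma adjusted p = 0.864). That sign rests on CCl4 rat 3, at 10.53 against 9.66 and 9.78 in the other CCl4 rats and 9.63 to 10.03 with CCl4+Rot. CCl4 rat 3 was also highest of its group for Rfx5, at 9.70 against 8.86 and 9.24. Ifng, the usual inducer, was called present on 2 of 9 arrays.

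The interferon-stimulated genes are given for contrast. Of the 18, all measured, p before adjustment lay below 0.05 for 9 between CCl4 and vehicle, all lower, and for 13 between CCl4+Rot and CCl4, all higher, against 12.4% and 6.63% of all probe sets, and none was called. The changes of Mx2 (-1.73 and 1.87) and Oas1a (-1.93 and 2.12) had opposite signs in these comparisons, which share the CCl4 rats. The list's medians were -0.76 and 1.05, while those of the class II genes were 0.21 and 0.18. The difference between the lists was not tested.

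Class I genes, the nearest other presentation route, gave medians of 0.13, 0.15 and 0.19 in the 3 comparisons over 17 probe sets, and none was called. Psmb8 (0.60, SE 0.186, adjusted p = 0.724) and Tap1 (0.49, SE 0.168, adjusted p = 0.724), of the immunoproteasome and the peptide transporter, had p below 0.05 before adjustment between CCl4+Rot and CCl4. These were 2 of the 17, against 6.63% of all probe sets. Nlrc5, the class I relative of Ciita, differed by 0.19 there (SE 0.338, adjusted p = 0.900). Between CCl4+Rot and vehicle, p before adjustment lay below 0.05 for RT1-CE5 (0.96, SE 0.286, limma adjusted p = 0.390) and Psmb9 (0.75, SE 0.272, limma adjusted p = 0.504), against 8.31% of all probe sets. All CCl4+Rot rats lay above all vehicle rats for 6 of the 17, against 11.9%. Of the costimulation list, 5 of 8 genes were measured, 2 of them (Cd80 and Cd40) absent on all arrays, and none reached p below 0.05 before adjustment.

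**Figure D4:**
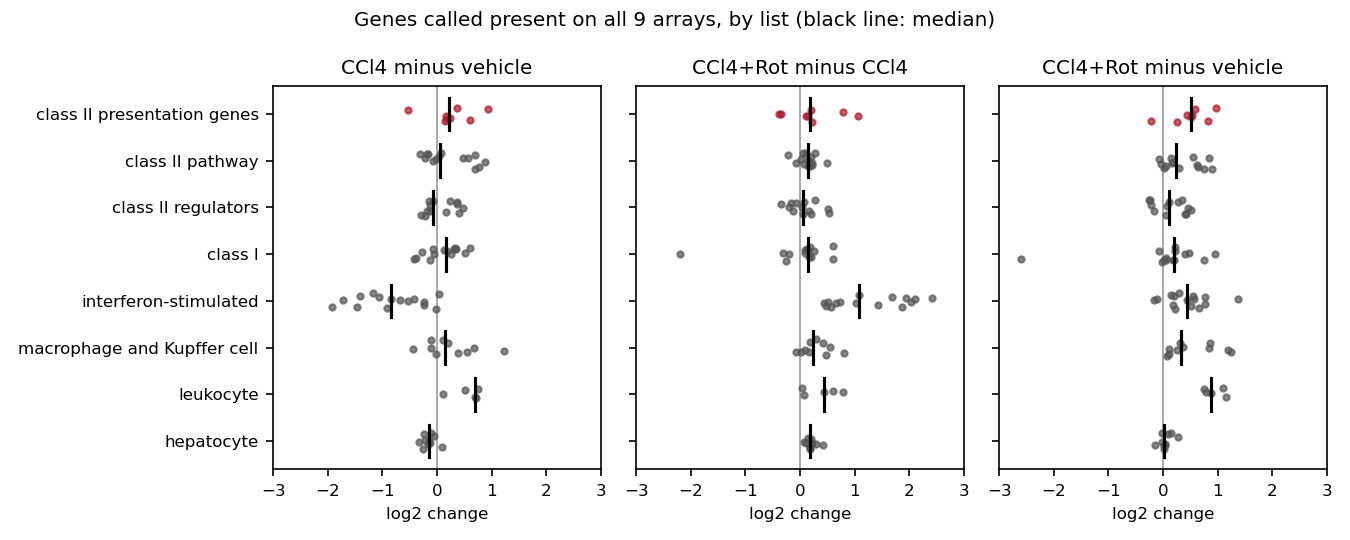
The log2 change of each gene called present on all 9 arrays (points, 1 probe set a gene, limma over 3 rats a group), by list and comparison, with the list's median as a black line. The class II presentation genes have medians of 0.21, 0.18 and 0.52, and the interferon-stimulated genes lie to the left in the first comparison and to the right in the second.

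The cells that carry class II also left their marks on the arrays. In whole liver, more cells of a type and more RNA in each cell cannot be told apart. The summed signal of the 6 leukocyte genes (antilog scale) ran from 3973 to 6472 in vehicle, 5922 to 9573 in CCl4 and 8404 to 11665 in CCl4+Rot, with 5 of 6 genes present on all arrays and Cd52 on none. For 5 of these 6 genes p before adjustment lay below 0.05 between CCl4+Rot and vehicle in the higher direction, against 8.31% of all probe sets in either direction, among them Ptprc, the CD45 gene (1.10, SE 0.317, limma adjusted p = 0.376). Within the vehicle group, rat 3 was highest for this sum as for the class II genes.

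Macrophage and Kupffer cell genes, with 10 of 11 present on all arrays and Itgam on none, summed to 23497 to 30017 in vehicle, 26990 to 35356 in CCl4 (34763 to 35356 without rat 3) and 35713 to 41978 in CCl4+Rot. Between CCl4 and vehicle the median change of those 10 genes was 0.15, with 6 higher and 4 lower, from -0.45 for Clec4f to 1.22 for Lyz2 (SE 0.216, limma adjusted p = 0.185). Dendritic cell genes summed to 985 to 1699, 1600 to 2005 (1600 to 1603 without rat 3) and 1618 to 2189, with Flt3, Batf3 and Fscn1 present on no array. Their single genes had changes of opposite sign between CCl4 and vehicle, -1.76 for Clec9a (SE 0.488, adjusted p = 0.258), 1.45 for Itgax (SE 0.525, adjusted p = 0.345) and 1.15 for Clec10a (SE 0.242, adjusted p = 0.218). B cell genes summed to 585 to 710, 609 to 1341 (609 to 876 without rat 3) and 844 to 953, with Blk and Fcer2 on none. Between CCl4+Rot and vehicle their median change was 0.15, with Blnk at 2.45 (SE 0.541, limma adjusted p = 0.239). The only B cell gene present on all arrays differed by 0.10 there (SE 0.361). Of the 10 T cell genes 6 were present on no array, Cd3d, Cd4 and Cd8a among them, and none on all. The part of these cells in the class II values was not tested.

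By the same measure the 8 class II genes together summed to 12599 to 21011 in vehicle, 15771 to 20631 in CCl4 and 17997 to 25992 in CCl4+Rot. The highest vehicle rat lay above every CCl4 rat, and each range overlapped the next. These sums mostly follow the brightest genes, Cd74 and RT1-Da, and say little of the dimmer members.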

How the data were processed

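Frozen liver of 9 rats gave total RNA for Affymetrix rat arrays, 1 for each rat. The authors deposited log2 signals with detection calls for 31099 probe sets. The submitters' processing notes name MAS5 and affy without versions, and the genome build was not given in the sources used here. As deposited, every array has been scaled to a trimmed mean of 500 (antilog scale, 2% left off each end), and nothing more was done to the values. Gene symbols are those of the deposited table.

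Control probe sets (57) were set aside and limma 3.58.1 (R 4.3.3) was run on the other 31042, with a mean for each of the 3 groups and Benjamini-Hochberg adjustment over all of them. The brightest probe set on average stood for a gene. No fold was given for a gene absent on all arrays. Every member was named. From the other lists the text names genes with an unadjusted p below 0.05 and at least 1 present call, at most 4 a list and the smallest p first, some genes by role, and the 5 genes most like Cd74. The members and lists were chosen with earlier results of these data known. RT1-A2 and RT1-A3 share 1 probe set, counted once. Some genes that this rule selects are left out of the text.

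Alternatives were quantile normalization, median centring, filters on detection and on low signal, a fit of the compared groups alone, robust estimation (statmod 1.5.0), array weights, the methods' t-test, a random block by animal number, leaving out single arrays, other probe sets for a gene and other fold thresholds. Precision is limited by the number of arrays. The fit was tested on simulated data.

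The animal numbers do not pair the rats. Vehicle and CCl4 share only the number 3, vehicle and CCl4+Rot share 4 and 5, CCl4 and CCl4+Rot share none, and each number in a group names a separate rat.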

Additional observations from a re-analysis of the deposited data

How the results depend on the processing

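No class II gene was called under any alternative with p values adjusted over all probe sets. The methods' t-test without adjustment, with 1.5-fold, called 2 genes (RT1-DMa and RT1-DMb) between CCl4 and vehicle and 2, the same genes, between CCl4+Rot and vehicle, where it called 5.71% and 6.85% of all probe sets. With the animal number as a random replicate block, the counts at unadjusted p below 0.05 stayed at 2, 1 and 2 and the medians were 0.22, 0.17 and 0.52 in the 3 comparisons.

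Counts at unadjusted p below 0.05 (2, 1 and 2) were 0 and 1 in the first and last comparisons with arrays centred on their medians. Robust estimation gave 2 and 4 in the later comparisons. Between CCl4+Rot and CCl4 the count was 0 with the compared groups alone, array weights, the t-test with or without adjustment, all probe sets of a gene averaged, and the RT1-Ba choices below. It was 1 between CCl4+Rot and vehicle with that average. With probe sets that name 1 gene only, 5 members were left and the count was 0 in the first and last comparisons. Leaving out each rat gave 1 to 2, 0 to 2 and 1 to 4, the last without vehicle rat 3, and 0 calls in all. The median changes then ran from 0.12 to 0.44, 0.03 to 0.29 and 0.36 to 0.76.

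Signs turned as follows. Centring on array medians gave a median of -0.14 between CCl4 and vehicle, with Cd74 at -0.12, RT1-Bb at -0.17, RT1-Db1 at -0.22 and Ciita at -0.20. Array weights gave Ciita -0.17 there, and between CCl4+Rot and CCl4 RT1-Da -0.038 and Ciita 0.012. The mean of all probe sets gave RT1-Ba 0.32, -0.40 and -0.085 in the 3 comparisons, RT1-Db1 -0.058 in the first and Ciita 0.25 in the last. RT1-Ba alternatives chosen after seeing the data gave 2.16, -2.18 and -0.021 by probe set C, which is also the probe set with the highest median, 2.09 and -1.64 by probe set B in the first comparisons, and -1.29 by probe set D in the last. Leaving out a rat took RT1-Db1 from -0.032 to 0.30, Ciita from -0.38 to 0.49 and RT1-Bb from -0.046 to 0.35 in the first comparison, and RT1-Db1 from -0.07 to 0.28, RT1-Da from -0.012 to 0.30 and Ciita from -0.71 to 0.16 between CCl4+Rot and CCl4. The cause was not tested. RT1-DMa and RT1-DMb stayed above vehicle with each rat left out, at 0.72 to 1.13 and 0.50 to 0.77 for CCl4.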
